A study of Arabidopsis thaliana with 6 samples.

Results

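The cytochrome P450 genes were followed in mature rosette leaves of Arabidopsis thaliana. They were taken as every gene whose annotated symbol is a full P450 name (a family number, a subfamily letter and a gene number) and that has a probe set assigned to it alone. This gave 23 genes among the 13356 with a probe set of their own. RefSeq's TAIR10.1 gene table holds 236 symbols of this form, so 9.75% of them were measured under this rule. The rest had no probe set listed for them alone under such a symbol, for reasons that were not looked up. The 2 probe sets that a P450 shares with another gene were not used. The leaves came from the mlo2 mlo6 mlo12 triple mutant and from WT plants, grown under normal conditions and collected at ages of 5, 6 and 7 weeks counted from sowing. Each genotype and age was 1 Affymetrix array, so there were 6 arrays, 3 per genotype. MLO2, MLO6 and MLO12 code for membrane proteins that powdery mildew fungi need to enter leaf cells, and the title of the series concerns indolic metabolites in antifungal defence. The labels name neither the mutant alleles nor the number of plants behind an array.

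Cytochromes P450 are haem enzymes that insert oxygen into small molecules. In plants they take electrons mostly from a reductase in the endoplasmic reticulum. They build and break down hormones, sterols, pigments, cutin and defence compounds, and the camalexin and indole glucosinolate routes depend on several of them. Of 85 P450 genes listed here by a known role, 2 were measured under the rule, CYP71B6 and CYP78A9. The values below therefore leave out most P450 genes of that list. Measured genes outside the list can have described roles too, and those of CYP79A2, CYP84A4 and CYP71B31 are given below. Families are numbered and subfamilies lettered by protein similarity, and many arose by tandem duplication, so close relatives often sit side by side on a chromosome. The CYP71 clan, also called the A type, is the large plant group of specialised metabolism.

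Of the 23 genes, 22 belong to the CYP71 clan and 19 to the CYP71B subfamily, for which RefSeq lists 36 genes. The other 4 subfamilies had 1 gene each: CYP78A9, CYP79A2, CYP84A4 and CYP51G2. A comparison of subfamilies is therefore CYP71B against 4 single genes. Each gene had 1 probe set, and 0 of the probe sets carried the suffix by which the manufacturer marks probes shared with other transcripts. Whether a close paralogue binds to one of these probe sets was not tested. In order along the chromosomes, 11 of the CYP71B genes lie in 1 run on chromosome 3, from CYP71B16 (AT3G26150) to CYP71B37 (AT3G26330). A second run on chromosome 3 holds CYP71B5 (AT3G53280), CYP71B30P (AT3G53290) and CYP71B31 (AT3G53300). A run on chromosome 1 holds CYP71B27 (AT1G13070), CYP71B28 (AT1G13090) and CYP71B29 (AT1G13100). CYP71B6 (AT2G24180) and CYP71B38 (AT3G44250) stand alone. A run here means P450 genes at most 10 gene positions apart in that table. There the first chromosome 3 run holds 19 P450 genes, the second 4 and the chromosome 1 run 7. What is said of a run below covers its measured genes alone.

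The values are log2 values of the RMA method, which makes the arrays' distributions more alike. They therefore carry no information on total mRNA, and a lower value can mean fewer cells that use a gene or less transcript per cell, which cannot be told apart in whole leaves. The 6-week WT array had the lowest mean correlation with the others, 0.970, against 0.975 to 0.982. Its values were also spread less, with quartiles of 2.82 and 5.88, against 2.70 to 2.74 and 6.02 to 6.06 on the other arrays. The leaf markers with a probe set of their own were the Calvin cycle genes RCA, PRK and SBPASE and the photosystem gene PSAN, 4 of 12 listed, and their values ran from 9.69 to 12.7 on the 6 arrays. The root marker PYK10 read 2.31 to 2.75, the guard cell gene FMA read 3.52 to 4.06, and 0 of the 6 flower and 0 of the 5 seed markers had a probe set of their own. The 3 targeted MLO genes had 0 such probe sets, so they give no check of the genotype.

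A mean value under 4 over the 6 arrays was called dim, because RMA compresses values near background. Dim probe sets were 12 of the 23, among them 9 of the 19 CYP71B genes. Their values ran from 2.08 to 4.25, and 10 of the 12 stayed under 3 on every array. Both genes that RefSeq calls transcribed pseudogenes were dim, CYP51G2 and CYP71B27. CYP71B30P, a pseudogene by its name, was also dim. So was CYP79A2, whose enzyme turns phenylalanine into the oxime that leads to benzyl glucosinolate. CYP78A9, known for its part in fruit and seed size, read 3.47, 3.74 and 3.17 in the mutant and 3.65, 3.45 and 3.60 in WT at 5, 6 and 7 weeks. CYP71B31, described in floral terpenoid metabolism, read 2.17, 2.21 and 2.15 in the mutant and 2.36, 2.41 and 2.35 in WT. The 11 genes with a mean of at least 4 were 10 CYP71B genes and CYP84A4, and most of what follows rests on them.

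**Figure D1:**
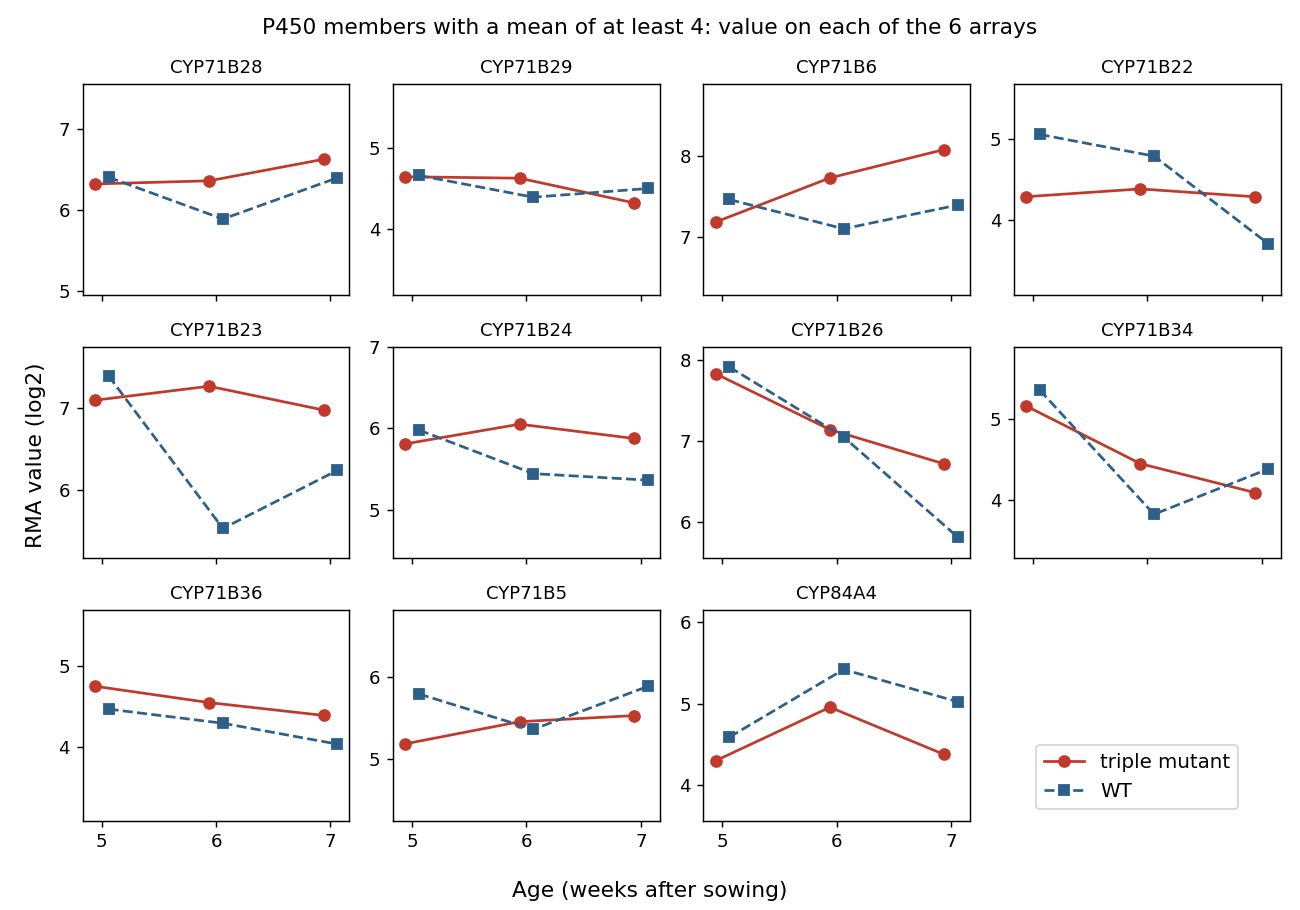
RMA values (log2, vertical axis) of the 11 P450 genes with a mean of at least 4 against leaf age in weeks (horizontal axis), with the triple mutant as red circles and WT as blue squares. Each point is 1 array, and every panel spans the same height. CYP71B26 declines in both genotypes, CYP71B22 stays between 4.29 and 4.38 and CYP71B23 between 6.98 and 7.27 on the mutant arrays, and CYP71B6 climbs on the mutant arrays.

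The comparison of genotypes asked which P450 transcripts the mutant leaves held at another level than WT, averaged over the 3 ages. CYP84A4 lay below WT at each age, and CYP71B36 lay above WT at each age. The CYP71B genes as a subfamily were split, with 10 of 19 estimates above 0 and a median of 0.014 (log2). Over all 23 genes 12 were above 0, against 43.7% of all 22746 probe sets, whose median was -0.025. In limma, 0 of the 23 genes passed an adjusted p of 0.05, which also held for 0% of all probe sets. At an unadjusted p under 0.05 there were 2 of 23, against 6.52% of all probe sets. Of these 1 was higher, against 3.93%, and 1 was lower, against 2.59%. The mutant was above WT at all 3 ages for 2 genes, CYP71B36 and CYP79A2, against 12.2% of all probe sets. It was below at all 3 ages for 4 genes, CYP71B21, CYP71B27, CYP71B31 and CYP84A4, against 16.7%.

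CYP84A4, an enzyme of arabidopyrone synthesis related to ferulate 5-hydroxylase, had 4.29, 4.95 and 4.37 in the mutant and 4.59, 5.42 and 5.02 in WT at 5, 6 and 7 weeks. The mutant was lower at each age while the groups overlapped, because both genotypes read highest at 6 weeks. Its differences were -0.29, -0.47 and -0.65, and the limma estimate was -0.47 ± 0.12 (SE), with a 95% interval of -0.79 to -0.15 and an adjusted p of 0.715. CYP71B36, of the main chromosome 3 run, had 4.75, 4.54 and 4.39 in the mutant and 4.46, 4.29 and 4.03 in WT. It was above WT by 0.28, 0.25 and 0.35, with an estimate of 0.30 ± 0.10 (SE) and an adjusted p of 0.754 in limma. Among the 23 genes these were the intervals that left out 0, before adjustment, and 21 covered it.

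CYP71B23 had the largest genotype estimate of the 23 genes, with an interval that covered 0. It read 7.10, 7.27 and 6.98 in the mutant and 7.40, 5.52 and 6.24 in WT. The mutant arrays lay close together, and WT was high at 5 weeks and low at 6 weeks. Its mean was 7.12 ± 0.15 in the mutant and 6.39 ± 0.95 in WT (SD, n = 3 arrays of different ages), and the limma estimate was 0.73 ± 0.40 (SE), with an interval of -0.32 to 1.78. Without either 6-week array the estimate was 0.22, and without either 5-week array it was 1.25. CYP71B6, whose enzyme oxidises indole-3-acetonitrile towards indole-3-carboxylic acid, had 7.19, 7.73 and 8.08 in the mutant and 7.46, 7.10 and 7.40 in WT. It was lower in the mutant at 5 weeks and higher at 6 and 7 weeks, and its estimate was 0.34 ± 0.23 (SE). CYP71B24 was at 0.32 ± 0.19, CYP71B26 at 0.30 ± 0.22 and CYP71B28 at 0.21 ± 0.15. Leaving out single arrays moved these to as low as 0.17 for CYP71B24 and 0.073 for CYP71B28, both without a 6-week array, and 0.0042 for CYP71B26 without a 7-week array. CYP71B34 was at 0.046 ± 0.22, with 5.16, 4.45 and 4.09 in the mutant and 5.35, 3.82 and 4.38 in WT. On the lower side were CYP71B5 at -0.29 ± 0.17 and CYP71B22 at -0.20 ± 0.28. CYP71B5 had 5.18, 5.46 and 5.53 in the mutant and 5.80, 5.36 and 5.89 in WT. The mutant was thus below WT at 5 and 7 weeks and above it by 0.094 at 6 weeks.

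Dim genes had estimates between -0.23 and 0.20. CYP71B21 was at -0.23 ± 0.12, CYP71B31 at -0.20 ± 0.10, CYP71B27 at -0.19 ± 0.14, CYP71B30P at -0.14 ± 0.15, CYP71B16 at -0.13 ± 0.14, CYP78A9 at -0.11 ± 0.17 and CYP71B37 at -0.077 ± 0.11. CYP79A2 was at 0.20 ± 0.12, CYP71B35 at 0.19 ± 0.24 and CYP51G2 at 0.023 ± 0.12. For 3 genes the 3 mutant arrays did not overlap the 3 WT arrays, against 8.92% of all probe sets. These were CYP71B21 and CYP71B31, below WT as were 5.5% of all probe sets, and CYP79A2, above WT as were 3.42%. All 3 were dim. Adjusted p-values over the 23 genes ran from 0.715 to 0.988 in limma.

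**Figure D2:**
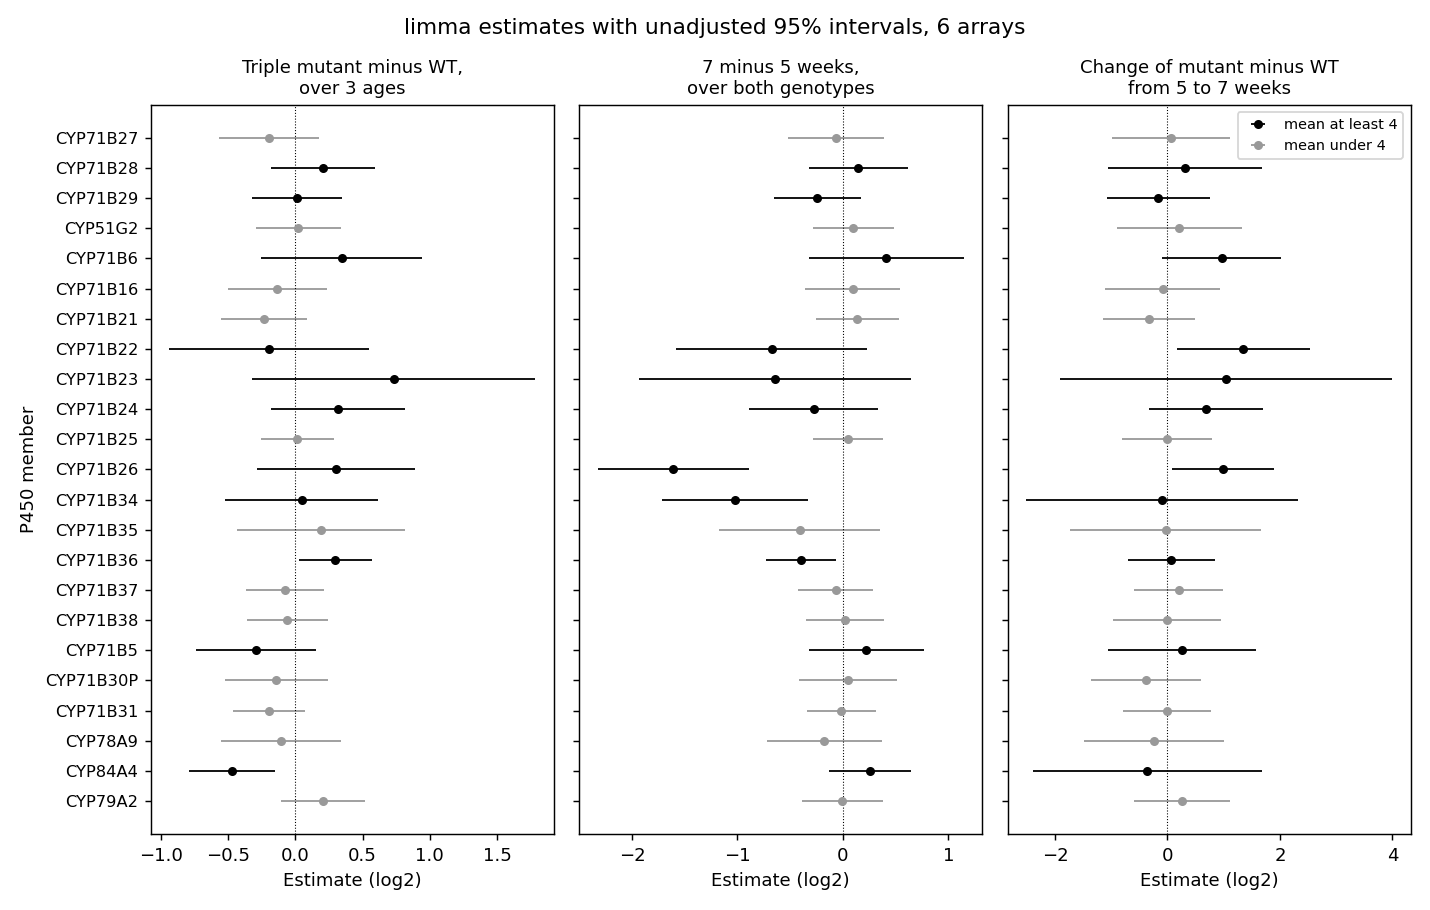
Limma estimates (log2, horizontal axes) with unadjusted 95% intervals for the 23 P450 genes, in order along the chromosomes, for triple mutant minus WT, for 7 minus 5 weeks and for the change of mutant minus WT from 5 to 7 weeks. Black points have a mean of at least 4 and grey points a mean under 4. The intervals for age leave 0 out for CYP71B26, CYP71B34 and CYP71B36, and the interaction intervals are the widest.

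At single ages each difference rested on 1 array per side and had no test. The count of 2-fold differences was 0 of 23 at 5 weeks, where 1.31% of all probe sets were that far apart. It was 1 of 23 at 6 weeks, against 4.93%, and 0 of 23 at 7 weeks, against 1.85%. That gene was CYP71B23 at 6 weeks, 1.75 above WT (log2) or 3.37-fold. Just short of the 2-fold limit were CYP71B26 at 7 weeks with 0.90, CYP71B35 at 6 weeks with 0.85 and CYP71B22 at 5 weeks with -0.77. At a limit of 1.5-fold the counts were 2, 5 and 4 of 23 at 5, 6 and 7 weeks, against 6.87%, 18.6% and 7.34% of all probe sets.

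The direction of the differences was not the same at the 3 ages. At 5 weeks 5 of the 23 genes were above WT, against 46.6% of all probe sets, and the median difference was -0.083. Among the 11 genes with a mean of at least 4, CYP71B36 alone was above WT at 5 weeks. At 6 weeks 13 of 23 were above WT, against 46.8%, with a median of 0.091. At 7 weeks 11 of 23 were above WT, against 46%, with a median of -0.013. Of the 10 CYP71B genes with a mean of at least 4, 1, 9 and 7 were above WT at 5, 6 and 7 weeks, with medians of -0.18, 0.36 and 0.43. Over all 10951 probe sets with such a mean 47.8%, 59.5% and 50% were above WT, and the medians were -0.017, 0.13 and 0.001. CYP71B6, CYP71B23, CYP71B24, CYP71B26 and CYP71B28 were below WT at 5 weeks and above it at 6 and 7 weeks, which is 5 of 23, against 11.3% of all probe sets. All 5 had a mean of at least 4, a level at which 14.7% of probe sets did so. The 5-week difference was -0.083 for both CYP71B26 and CYP71B28. At 5 weeks 17 of the 23 genes were less than 0.2 from WT in either direction.

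**Figure D3:**
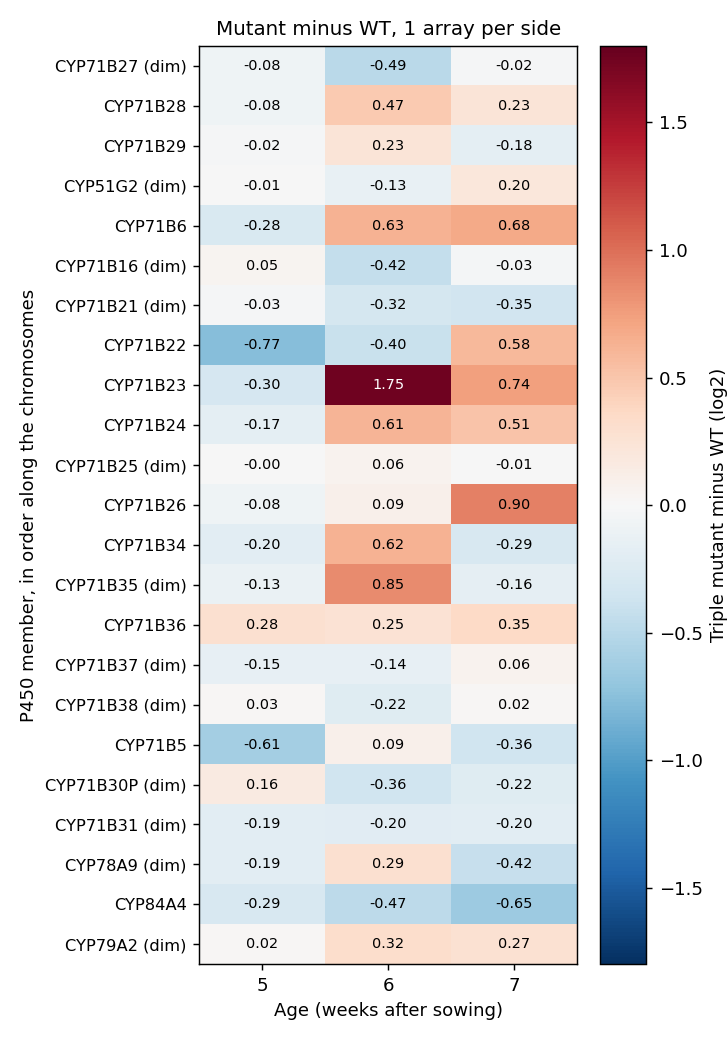
Triple mutant minus WT difference (log2, colour and printed value) of the 23 P450 genes at 5, 6 and 7 weeks, 1 array per side, in order along the chromosomes with dim genes marked. CYP71B23 at 6 weeks, at 1.75, is the only difference of at least 2-fold, and CYP84A4 is below WT at all 3 ages.

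The level of a probe set moved with the difference at 6 weeks. Among all probe sets with a mean under 4 the median difference at 6 weeks was -0.082, and among those with a mean of at least 4 it was 0.13. The dim P450 genes had a median of -0.17 at 6 weeks, and the others had 0.25. The 6-week WT array also read lowest of the 6 arrays in 35.6% of the probe sets with a mean of at least 4 and highest in 38.5% of those under 4. It was lowest for 4 of the 11 brighter P450 genes and highest for 5 of the 12 dim ones. Over all levels it was lowest for 5 of 23 P450 genes, against 23.6% of all probe sets, and highest for 6, against 29.7%. The part of this shift in the P450 differences was not tested. At 5 and 7 weeks the medians of all probe sets above and below that level lay within -0.033 and 0.001.

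**Figure D4:**
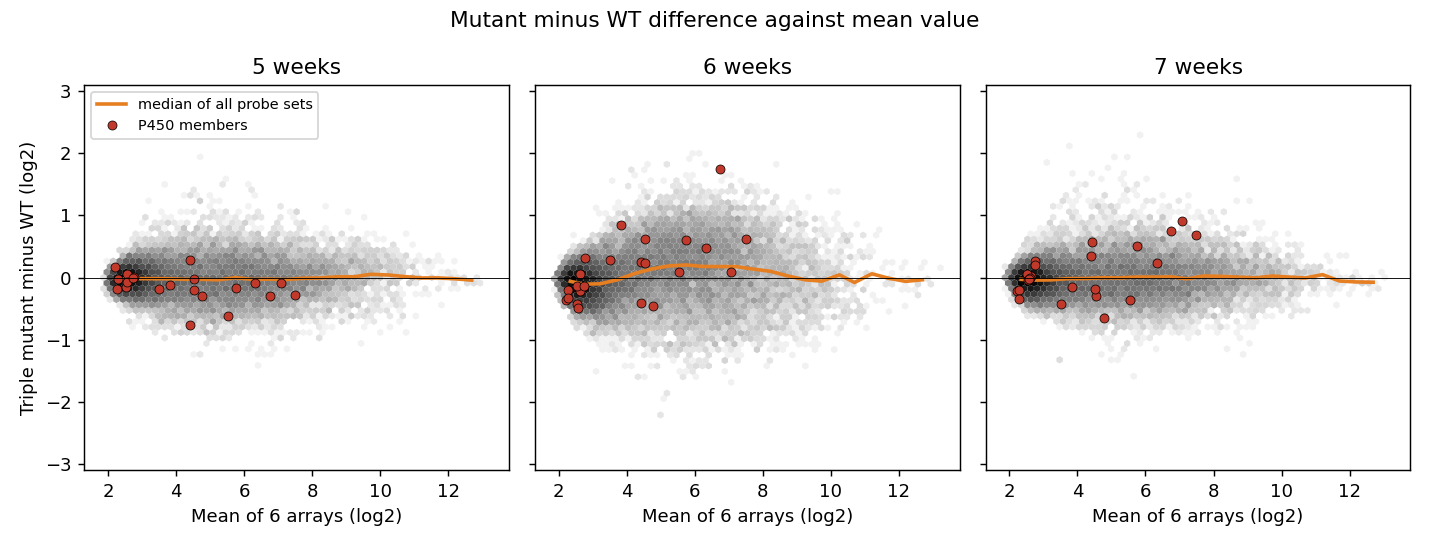
Triple mutant minus WT difference (log2, vertical axis) against the mean of the 6 arrays (log2, horizontal axis) for all probe sets (grey, darker where denser, differences beyond the axis drawn at its end) and the 23 P450 genes (red points), at 5, 6 and 7 weeks. The orange line is the median of all probe sets along the level. At 6 weeks it bends below 0 for dim probe sets and above 0 for brighter ones, and CYP71B23 lies far above it.

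The comparison of ages asked which P450 transcripts differed between leaves of 7 and 5 weeks, averaged over the genotypes. The measured CYP71B genes of the main chromosome 3 run were mostly lower at 7 weeks, led by CYP71B26 and CYP71B34. Of these 11 genes 8 had estimates below 0, with a median of -0.40. All 19 measured CYP71B genes had a median of -0.067 and all probe sets one of -0.007. Over the 23 genes 10 estimates were above 0, against 48.6% of all probe sets. In limma, 0 of 23 genes passed an adjusted p of 0.05, as did 0% of all probe sets. At an unadjusted p under 0.05 there were 3 of 23, against 16.2% of all probe sets. All 3 were lower at 7 weeks, against 8.34%, and 0 were higher, against 7.89%. Anything shared by the arrays of an age, such as the day of harvest, cannot be told apart from leaf age.

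CYP71B26 had 7.83, 7.14 and 6.71 in the mutant and 7.91, 7.05 and 5.81 in WT at 5, 6 and 7 weeks. It was lower at each step in both genotypes, as was CYP71B36, which is 2 of 23, against 4.16% of all probe sets. The 7-week arrays were below the 5-week arrays by 1.11 in the mutant and by 2.10 in WT (log2). The limma estimate for CYP71B26 was -1.61 ± 0.27 (SE), or 3.04-fold lower, with an interval of -2.32 to -0.89 and an adjusted p of 0.102. CYP71B34 had an estimate of -1.02 ± 0.26 (SE) and an adjusted p of 0.174 in limma. It read lower at 7 than at 5 weeks by 1.07 in the mutant and by 0.97 in WT, and its WT array was lowest at 6 weeks. CYP71B36 was at -0.40 ± 0.13 (SE), with an adjusted p of 0.239, and differed by -0.36 in the mutant and -0.43 in WT.

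With probe sets under a mean of 4 left out, the age estimate of CYP71B26 passed, with an adjusted p of 0.0394 in limma, and 2.93% of the remaining probe sets passed. Without both 6-week arrays, or without either of them, CYP71B26 and CYP71B34 passed, with adjusted p-values of 0.033 and 0.0236. In that fit 7.72% of all probe sets passed, against 0% with all 6 arrays. The 6-week arrays enter only the error of this estimate.

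The neighbours CYP71B34, CYP71B35, CYP71B36 and CYP71B37 are consecutive P450 genes, and their estimates for age were -1.02, -0.41, -0.40 and -0.069, with the probe sets of CYP71B35 and CYP71B37 dim. CYP71B22 and CYP71B23, side by side as well, were at -0.67 ± 0.35 and -0.64 ± 0.49, and CYP71B24 was at -0.28 ± 0.23. Both 7-week arrays lay below both 5-week arrays for 8 of the 23 genes, against 25.7% of all probe sets. These were CYP71B22, CYP71B23, CYP71B26, CYP71B34, CYP71B35 and CYP71B36 of the main run, and CYP71B27 and CYP71B29 of the chromosome 1 run. Both lay above for 2 genes, the dim CYP71B16 and CYP71B25, against 24.1% of all probe sets.

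Among the genes outside the main run, CYP71B6 was at 0.41 ± 0.28, CYP84A4 at 0.26 ± 0.15, CYP71B5 at 0.22 ± 0.21 and CYP71B28 at 0.15 ± 0.18. CYP71B29 was at -0.24 ± 0.16 and CYP78A9 at -0.18 ± 0.21. The dim genes CYP51G2, CYP71B30P and CYP71B38 had estimates of 0.10, 0.045 and 0.024. The dim genes of the main run CYP71B21, CYP71B16 and CYP71B25 had 0.14, 0.092 and 0.047. The intervals of all these genes covered 0. Of the leaf markers, SBPASE was at -1.05 ± 0.23, RCA at -0.58 ± 0.14, PRK at -0.45 ± 0.15 and PSAN at -0.30 ± 0.14 in the same comparison. None of these 4 passed in limma (adjusted p = 0.137 to 0.388), and 0% of all probe sets did. SBPASE, RCA and PRK had an unadjusted p under 0.05, against 16.2% of all probe sets. For all 4 markers both 7-week arrays lay below both 5-week arrays, against 25.7% of all probe sets. The part of the leaf markers' difference in the P450 values was not tested.

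Within WT, most CYP71B genes with a mean of at least 4 read lower at 6 weeks and at 7 weeks than at 5 weeks. Between 5 and 6 weeks 4 of these 10 genes read lower at 6 weeks in the mutant, with a median difference of 0.067, and all 10 did in WT, with a median of -0.48. Over all probe sets of that level 48.2% were lower at 6 weeks in the mutant and 57.8% in WT, with medians of 0.020 and -0.16. The WT values of this step rest on the 6-week WT array. Between 5 and 7 weeks 6 of the 10 genes were lower at 7 weeks in the mutant, with a median of -0.061, and 9 of 10 in WT, with a median of -0.52. At that level 50.4% of all probe sets were above 0 for this step in the mutant and 47.9% in WT. Between 6 and 7 weeks 6 of the 10 genes were higher at 7 weeks in WT, with a median of 0.20. In the mutant 3 were, with a median of -0.17. Of the 10951 probe sets of that level 6413 were higher for this step in WT and 5374 in the mutant.

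Over all 23 P450 genes, 10 were lower at 6 than at 5 weeks in the mutant, against 48.1% of all probe sets, and 15 were in WT, against 46.8%. From 5 to 7 weeks 11 were higher at 7 weeks in the mutant, against 48.3% of all probe sets, and 7 were in WT, against 49.2%. CYP71B28 had 6.32, 6.36 and 6.62 in the mutant and 6.40, 5.89 and 6.39 in WT, so WT dipped at 6 weeks alone. CYP71B29, its neighbour, had 4.65, 4.63 and 4.32 in the mutant and 4.66, 4.39 and 4.50 in WT. CYP71B35 had 3.98, 4.25 and 3.55 in the mutant and 4.10, 3.40 and 3.71 in WT, near the level under which probe sets were called dim.

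The interaction asked how far the genotype difference at 7 weeks departed from that at 5 weeks. CYP71B22 and CYP71B26, both of the main chromosome 3 run, lay below WT at 5 weeks and above it at 7 weeks. In limma, 0 of 23 genes passed an adjusted p of 0.05, as did 0% of all probe sets, and each adjusted p was 1. At an unadjusted p under 0.05 there were 2 of 23, against 1.02% of all probe sets, both above 0, against 0.598%. Over the 23 genes 12 estimates were above 0, against 50% of all probe sets. For 6 genes both later arrays lay on one side of the 5-week array in the mutant and on the other in WT, against 14.4% of all probe sets. The median standard error of the 23 estimates was 0.38, against 0.14 for the genotype estimates. This fit draws age as a straight line, so a bend over age that both genotypes share enters its error. CYP84A4, highest at 6 weeks in both genotypes, is such a case.

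CYP71B22 had 4.29, 4.38 and 4.29 in the mutant and 5.06, 4.79 and 3.71 in WT at 5, 6 and 7 weeks. The mutant arrays were level while WT was lower at each step, so the difference was -0.77 at 5 weeks and 0.58 at 7 weeks. The change was 1.35 ± 0.44 (SE), with an interval of 0.16 to 2.53. With single arrays left out it ranged from 0.53, when WT at 7 weeks was missing, to 2.16, when WT at 5 weeks was missing. For CYP71B26 the difference was -0.08 at 5 weeks and 0.90 at 7 weeks, a change of 0.99 ± 0.34 (SE), with an interval of 0.074 to 1.90, and it was 0.61 without the 7-week WT array. For CYP71B6 it was -0.28 at 5 weeks and 0.68 at 7 weeks, a change of 0.96 ± 0.39 (SE), and the interval, from -0.10 to 2.03, covered 0. CYP71B24 had 5.81, 6.05 and 5.88 in the mutant and 5.98, 5.44 and 5.36 in WT. Its change was 0.68 ± 0.37, and that of CYP71B23 was 1.04 ± 1.09. In the other direction were CYP71B30P at -0.38 ± 0.36, CYP84A4 at -0.36 ± 0.75, CYP71B21 at -0.32 ± 0.30, CYP78A9 at -0.23 ± 0.46 and CYP71B29 at -0.16 ± 0.34.

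Of the 10 CYP71B genes with a mean of at least 4, 8 had interaction estimates above 0, with a median of 0.50, and 10 of all 19 had, with a median of 0.061. Over all probe sets with such a mean the median was 0.027, and 52.4% were above 0. By run, the interaction estimates went from -0.32 to 1.35 in the main chromosome 3 run, with a median of 0.071, from -0.16 to 0.31 in the chromosome 1 run, with a median of 0.061, and from -0.38 to 0.26 in the second chromosome 3 run, with a median of -0.009. The difference between the runs was not tested. The unadjusted calls of CYP71B22 and CYP71B26 were lost when the arrays were normalised a second time, with limma-trend, without variance moderation and with the dim probe sets left out.

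Genes that work beside P450s were mostly without a probe set of their own. Of the 9 listed electron donors 1 was measured, the cytochrome b5 reductase CBR2, at 0.14 ± 0.13 in the mutant relative to WT. Of the 16 listed indolic genes 2 were measured, IGPS of tryptophan synthesis at 0.41 ± 0.40 and UGT74B1 of glucosinolate synthesis at 0.057 ± 0.33. Of 7 gibberellin genes 2 were, the receptors GID1B at 0.95 ± 0.11 and GID1A at -0.016 ± 0.31. Of 8 jasmonate genes 1 was, OPCL1 at -0.059 ± 0.19, and of 9 phenylpropanoid genes 2 were, the scopoletin enzyme F6'H1 at 1.66 ± 0.14 and HCT at 0.049 ± 0.11. None of these 8 genes passed in limma (adjusted p = 0.660 to 0.994), and 0% of all probe sets did. Of the 8, F6'H1 and GID1B, which is 2, had an unadjusted p under 0.05, against 6.52% of all probe sets. The lists of brassinosteroid, abscisic acid and cutin and wax genes had 0 measured members, as did the 24 P450 genes listed under other names.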

How the data were processed

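Total RNA of the 6 leaf samples was labelled and hybridised to Affymetrix arrays, per the labels' protocols. The authors deposited log2 values from RMA, per the submitters' processing notes. The version of RMA is not given in the sources used here. That the scale is log2 follows from the range of the values, and the number of arrays limits the precision. Of 22810 probe sets, 64 controls were set aside and 22746 were tested, of which 13513 had 1 gene in the platform annotation, 503 several and 8730 were not listed. All 23 P450 symbols matched RefSeq's TAIR10.1 table. Tests used limma 3.58.1 in R 4.3.3, with genotype and age as a factor (2 residual degrees of freedom), and with age as a number for the interaction. P-values were adjusted over all 22746 probe sets by the Benjamini-Hochberg method, and the fits were tested on simulated data. With 1 array per genotype and age, the error of the genotype and age fits is the unevenness of the mutant minus WT difference across ages. Limma moderates it over all probe sets. It cannot be told apart from the spread between arrays of the same genotype and age. Nothing in the labels says that arrays came from separately grown plants, so p-values speak only for these arrays. The members and lists were chosen with earlier results of these data known. Named in each comparison were the 10 genes of smallest unadjusted p in each direction (5 for the interaction), genes at least 2-fold apart at an age or just short of it, the 10 of highest mean level, and members of textbook function. The age paired the arrays and is the block of the main fit. Alternatives were other error models, scalings, a level filter, and fits without single arrays.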

Additional observations from a re-analysis of the deposited data

Results flagged for a closer look

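In 6 of the 23 genes both later arrays lay on one side of the 5-week array in the mutant and on the other side in WT, against 14.4% of all probe sets. The change of mutant minus WT from 5 to 7 weeks was 0.96 for CYP71B6, 0.68 for CYP71B24, 0.31 for CYP71B28 and 0.26 for CYP79A2, where the mutant moved up and WT down. It was -0.38 for CYP71B30P and -0.32 for CYP71B21, where the mutant moved down and WT up. None of these changes passed in limma (adjusted p = 1 for each). CYP79A2, CYP71B30P and CYP71B21 are dim. Several of the moves were near 0. The smaller move from 5 to 7 weeks was -0.008 for CYP71B28 and -0.067 for CYP71B6, both in WT. In the mutant it was 0.067 for CYP71B24, -0.023 for CYP71B21, 0.12 for CYP79A2 and -0.15 for CYP71B30P.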

How the results depend on the processing

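Estimates are log2, and counts are of the 23 genes. For age, 0 genes passed an adjusted p of 0.05 in limma, as did 0% of all probe sets. This became 1 with probe sets under a mean of 4 left out, where 2.93% of the remaining probe sets passed. It became 2 without both 6-week arrays, where 7.72% of all probe sets passed. When single arrays were left out it was 0 to 2, where 0% to 7.72% of all probe sets passed. The genotype comparison had 2 genes at an unadjusted p under 0.05. With no replicate block, that is without the age term that pairs the arrays, it had 0, against 3.23% of all probe sets. It had 1 with age as a number, against 4.54%, and 1 with a second quantile normalization, against 6.7%. With dim probe sets left out it had 1, against 6.74% of the remaining probe sets. Without single arrays it had 1 to 4, where 3.01% to 10.1% of all probe sets were called, against 6.52% with all. The interaction had 2 such genes, and 1 with age as a factor, against 1.13% of all probe sets. It had 0 with limma-trend, against 1.05%, and 0 without variance moderation, against 2.55%. It also had 0 with a second quantile normalization, against 1.01%, and with dim probe sets left out, against 0.539% of the remaining probe sets. Without single arrays it had 0 to 5, where 0.233% to 17.2% of all probe sets were called. The 5 arose without the 7-week WT array, where 17.2% of all probe sets were called, against 1.02% with all arrays. At a 1.5-fold limit 2, 5 and 4 genes were apart at 5, 6 and 7 weeks, against 6.87%, 18.6% and 7.34% of all probe sets. The CYP71B median became 0.25 for genotype and -0.34 for age with dim probe sets left out, and 0.00013 for age with the arrays shifted to 1 median. Without both 6-week arrays the genotype sign turned for CYP71B35 (-0.14), CYP71B34 (-0.24) and CYP71B16 (0.011). The cause of these changes was not tested.

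Leaving out single arrays turned the sign of further estimates. For genotype they ran from -0.068 to 0.098 for CYP51G2, -0.23 to 0.011 for CYP71B16, -0.59 to 0.088 for CYP71B22, -0.24 to 0.21 for CYP71B34, -0.14 to 0.36 for CYP71B35 and -0.30 to 0.050 for CYP78A9. For age they ran from -0.037 to 0.24 for CYP51G2, -0.048 to 0.23 for CYP71B16, -0.017 to 0.29 for CYP71B21, -1.42 to 0.13 for CYP71B23, -0.64 to 0.091 for CYP71B24, -0.068 to 0.36 for CYP71B28, -0.18 to 0.27 for CYP71B30P, -0.17 to 0.032 for CYP71B37, -0.040 to 0.088 for CYP71B38, -0.021 to 0.46 for CYP71B5, -0.053 to 0.88 for CYP71B6 and -0.41 to 0.059 for CYP78A9. For the interaction they ran from -1.55 to 3.64 for CYP71B23, -0.54 to 0.21 for CYP71B29, -0.92 to 0.15 for CYP71B30P, -1.07 to 0.60 for CYP78A9 and -1.60 to 0.88 for CYP84A4. The age estimates of CYP71B26 (-2.06 to -1.16) and CYP71B34 (-1.27 to -0.77) kept their sign, as did that of CYP71B22 (-1.26 to -0.091).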

Other observations

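CYP718, a P450 whose symbol has no subfamily letter, fell outside the rule. It read 3.21, 3.28 and 3.12 in the mutant and 3.34, 3.56 and 3.02 in WT at 5, 6 and 7 weeks, which makes it dim, with a genotype estimate of -0.10 ± 0.12 (SE, log2) and an age estimate of -0.21 ± 0.15. It was chosen after its values were seen.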
